A study of Homo sapiens with 39 samples.

Results

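AZD-SAR is a hybrid estrogen receptor ligand that joins the scaffold of AZD9496 to the side chain of SAR439859, and it was compared with AZD9496 itself, which keeps its own side chain on the same scaffold. All 12 libraries of these ligands were taken, out of 39 in the study: 3 of AZD-SAR at 30 nM, 3 of AZD-SAR at 300 nM, 3 of AZD9496 at 30 nM and 3 of AZD9496 at 300 nM. The cells were HCC1428-LTED, a breast cancer line kept in long term estrogen deprivation, grown in IMEM medium with 5% charcoal-stripped serum and exposed to ligand for 24 hours before total RNA was extracted and sequenced. The study also treated this line with fulvestrant, SAR439859, GDC-0810 and a second hybrid, GDC-SAR, at the same doses, and had 3 DMSO vehicle libraries. A single cell line was used, and every group shares its estrogen-deprived state. The labels do not say that the 3 libraries of a group came from separate cultures, and the series text speaks of duplicates, so p-values measure the spread between libraries, which may be technical.

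The estrogen receptor alpha, encoded by ESR1, is a ligand-activated transcription factor. With estrogen bound it recruits coactivators to enhancers of genes such as PGR, GREB1 and TFF1 and drives luminal breast cancer cells into the cell cycle through CCND1, MYC and the E2F factors. Antagonists and selective estrogen receptor degraders displace estrogen, change the fold of the receptor's ligand-binding domain through their side chain, and to differing degrees lower the amount of receptor protein. Long term estrogen deprivation models the state of tumours treated with an aromatase inhibitor, in which the receptor can stay active with little estrogen.

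Levels are TPM, the abundance of a transcript per length, scaled so that each library sums to 1000000. The number of reads behind the values is unknown. In the 12 libraries, 20990 to 26756 symbols were above 0 TPM. All 8 defining luminal markers (ESR1, GATA3, FOXA1, KRT8, KRT18, KRT19, EPCAM and CDH1) averaged at least 1 TPM under each ligand, with a summed level of 9221 to 13520 TPM in AZD-SAR libraries and 7523 to 12638 TPM in AZD9496 libraries. Of the 12 basal and mesenchymal markers in the table, 2 reached a mean of 1 TPM in AZD-SAR libraries and 1 in AZD9496 libraries, with sums of 26.8 to 62.6 and 40.2 to 57.98 TPM. Of 14 stromal, endothelial and immune markers, 2 reached 1 TPM under each ligand, with sums of 17.4 to 31.6 TPM in AZD-SAR libraries and 19.1 to 24.4 TPM in AZD9496 libraries. Small structural RNAs took a large and unequal part of the total. SNORA76C held 9.72% to 18.7% of all TPM in AZD-SAR libraries and 6.18% to 9.48% in AZD9496 libraries, with no overlap, and RN7SL1 held 0.318% to 4.41% in AZD-SAR libraries and 1.80% to 7.28% in AZD9496 libraries. In DMSO libraries SNORA76C held 4.56% to 6.24% and RN7SL1 10.7% to 11.5%. Levels set beside DMSO are TPM as deposited unless scaled values are named. MALAT1 was listed at 0 in AZD-SAR 300 nM replicate 2 and held 5.57% to 10.5% of all TPM in the other 11 libraries. AZD-SAR 300 nM replicate 3 lay farthest from its group, with a root mean square distance of 0.675 on the log2 scale to the mean of its 2 partners, against 0.461 to 0.614 in the other AZD-SAR libraries and 0.466 to 0.514 in AZD9496 libraries. Counts are therefore given also after median-of-ratios scaling, which removes a shared shift between libraries, and without that library; the part of the small RNAs in the results was not tested.

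With the SAR439859 side chain in place of AZD9496's own, more genes were lower than higher on TPM as deposited. With doses pooled (limma on log2(TPM + 1) with dose as a block, Benjamini-Hochberg adjusted p under 0.05, hereafter called), 1246 genes were lower in AZD-SAR than in AZD9496 libraries, 8.65% of the 14404 tested, and 270 were higher, 1.87%. The genes that were lower included receptor targets such as KRT13, GREB1, EGR3 and CCND1 and enzymes of DNA replication, and those that were higher included CD55, a complement inhibitor, and BLNK, an adaptor protein. The median difference was -0.59 on the log2 scale among the genes called lower, 0.64 among those called higher and -0.08 over all genes tested. A difference of at least 1 on the log2 scale was found for 142 of the genes called lower and 42 of those called higher. Protein-coding genes made up 1170 of the 1246 lower genes and 193 of the 270 higher genes.

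The split between directions depended on the scaling, and the size of the called set depended on single libraries. After median-of-ratios scaling, 722 genes were lower (5.01%) and 618 higher (4.29%), so that 46.1% of calls were in the higher direction, against 17.8% on TPM as deposited. All 722 of these lower genes were among the 1246, and 269 of the 270 higher genes were called again. Leaving out AZD-SAR 300 nM replicate 3 gave 2357 calls in place of 1516. Leaving out AZD9496 30 nM replicate 2 gave 784 calls, AZD9496 30 nM replicate 3 gave 967, AZD9496 300 nM replicate 1 gave 911, AZD9496 300 nM replicate 2 gave 685, AZD-SAR 30 nM replicate 1 gave 823 and AZD-SAR 300 nM replicate 2 gave 971.

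The receptor's own transcript was not called different, while its classical targets were lower with the SAR439859 side chain. ESR1 had 250.1, 392 and 436 TPM in AZD-SAR libraries (here and below the lowest, median and highest of 6 libraries), against 409.6, 501 and 568 TPM in AZD9496 libraries and a mean of 436 TPM in DMSO libraries. The difference was -0.40 ± 0.14 on the log2 scale (± gives the standard error, here and below; 95% interval -0.70 to -0.09; limma adjusted p = 0.0886). PGR, the progesterone receptor, had 2.05, 3.15 and 4.64 TPM in AZD-SAR libraries, against 5.95, 7.07 and 9.27 TPM in AZD9496 libraries and 35.8 TPM in DMSO libraries. The ligands did not overlap, both lay far below vehicle, and the difference between them was -0.95 ± 0.18 (limma adjusted p = 0.00861). GREB1, a receptor coactivator and early estrogen response gene, had 0.818, 1.06 and 1.84 TPM in AZD-SAR libraries and 3.41, 5.26 and 6.40 TPM in AZD9496 libraries, a difference of -1.51 ± 0.14 (limma adjusted p = 9.9e-05). In DMSO libraries GREB1 averaged 19.7 TPM. TFF1, a secreted trefoil peptide, was among the most abundant of these transcripts, at 465, 689 and 826 TPM in AZD-SAR libraries, 1057, 1161 and 1230 TPM in AZD9496 libraries and 2906 TPM in DMSO libraries. It fell by 0.83 on the log2 scale (SE 0.11, limma adjusted p = 0.00118), again with no overlap.

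CCND1, encoding cyclin D1, had 78.6, 90.5 and 107 TPM in AZD-SAR libraries, against 199, 214 and 235 TPM in AZD9496 libraries and 267 TPM in DMSO libraries. The AZD9496 range reached that of vehicle, 230.7 to 309 TPM, whereas every AZD-SAR library lay below every AZD9496 library (log2 difference -1.22 ± 0.09, limma adjusted p = 1.77e-05). MYC had 16.1, 21.8 and 25.5 TPM in AZD-SAR libraries and 25.2, 30.3 and 34.0 TPM in AZD9496 libraries. The MYC ranges overlapped slightly, and the difference of -0.47 ± 0.10 was called (limma adjusted p = 0.0136). EGR3, an immediate early transcription factor and direct receptor target, had 0.0584, 0.332 and 1.03 TPM in AZD-SAR libraries, against 3.69, 5.16 and 5.89 TPM in AZD9496 libraries and 25.7 TPM in DMSO libraries. IL20, a cytokine, had 0.625, 1.64 and 2.77 TPM in AZD-SAR libraries, against 5.65, 6.74 and 8.77 TPM in AZD9496 libraries and 67.5 TPM in DMSO libraries. The differences were -2.10 ± 0.19 for EGR3 and -1.70 ± 0.16 for IL20 on the log2(TPM + 1) scale, which understates the change of genes near 0. Of the 45 estrogen-induced genes tested, 26 were called lower and 1, CA12, higher, with a median of -0.47. For this and the later lists, the shares over all genes tested were 8.65% lower and 1.87% higher. After scaling they were 5.01% and 4.29%. Of the estrogen-induced genes, 24 were lower and 1 higher after scaling. Among the lower ones were RARA (-1.05 ± 0.09), a retinoic acid receptor, STC2 (-1.12 ± 0.23), a secreted glycoprotein, and SLC9A3R1 (-1.39 ± 0.12), a scaffold for membrane proteins. On TPM as deposited, the single higher call of CA12, a carbonic anhydrase, was kept without AZD-SAR 300 nM replicate 1 but lost without any other library (0 higher calls in the list). After scaling CA12 was called higher with all libraries (0.43, limma adjusted p = 0.00367).

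**Figure D1:**
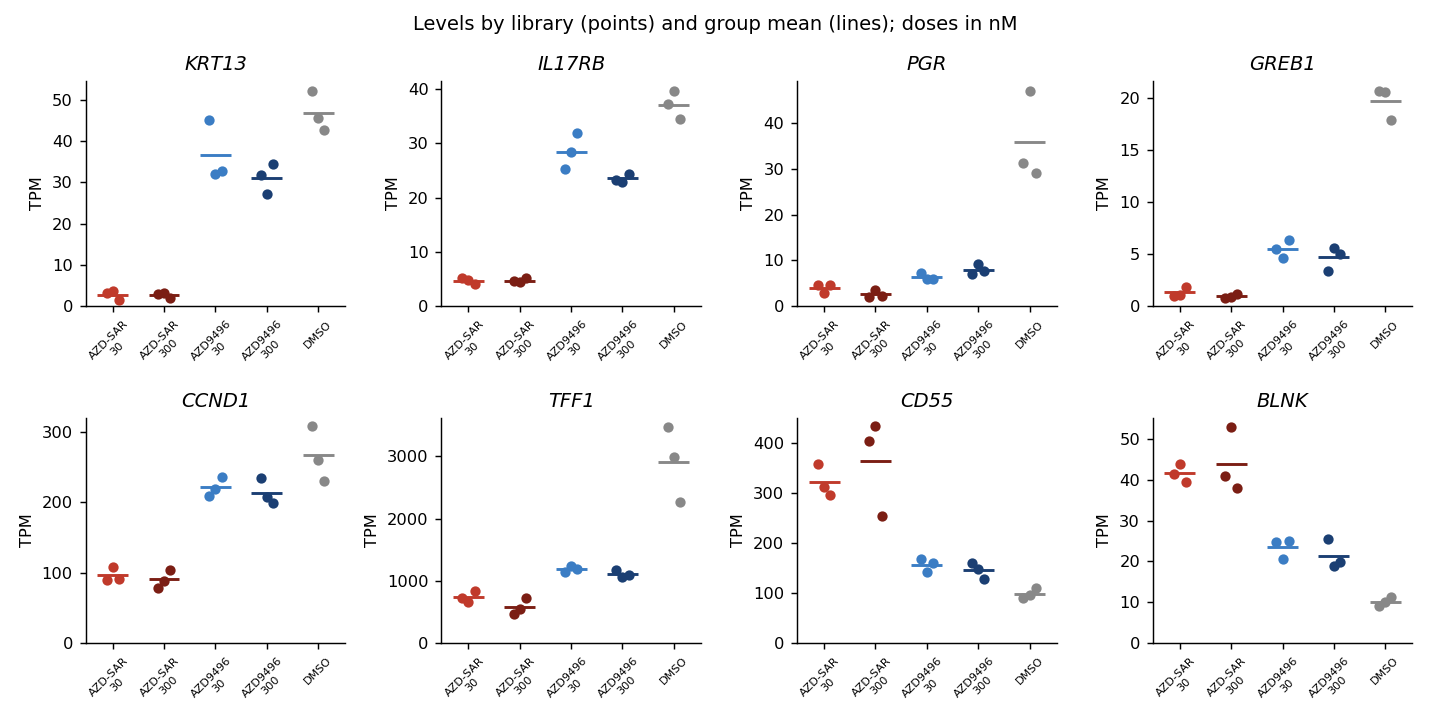
TPM (vertical axis, from 0) of 8 genes in each of 15 libraries, with AZD-SAR at 30 and 300 nM, AZD9496 at 30 and 300 nM and DMSO from left to right; points are libraries and lines group means. KRT13, IL17RB, GREB1, CCND1 and TFF1 are lower in every AZD-SAR library than in every AZD9496 library, PGR likewise with a narrower gap, and CD55 and BLNK are higher.

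The 15 genes with the largest falls were led by KRT13, a keratin, which had 1.61, 3.0 and 3.65 TPM in AZD-SAR libraries, against 27.1, 32.4 and 45.1 TPM in AZD9496 libraries and 46.8 TPM in DMSO libraries. The difference was -3.23 ± 0.16 (limma adjusted p = 5.33e-07), and AZD9496 libraries kept much of the vehicle level. CITED1, a transcriptional coregulator, had 0.373, 1.23 and 1.55 TPM in AZD-SAR libraries and 8.61, 13.1 and 16.3 TPM in AZD9496 libraries (-2.70 ± 0.18). IL17RB, a receptor subunit for interleukin 17B and interleukin 25, had 4.13, 4.73 and 5.14 TPM in AZD-SAR libraries, against 23.0, 24.8 and 31.9 TPM in AZD9496 libraries, with an adjusted p of 3.57e-07 by limma (-2.24 ± 0.09). STC1, a secreted glycoprotein hormone, had 5.08, 5.64 and 6.46 TPM in AZD-SAR libraries and 22.1, 24.0 and 27.7 TPM in AZD9496 libraries, beside 25.9 TPM in DMSO libraries. CELSR2, a cadherin of planar cell polarity, had 8.77, 14.3 and 17.6 TPM in AZD-SAR libraries and 41.4, 51.5 and 53.9 TPM in AZD9496 libraries, beside 56.4 TPM in DMSO libraries. For STC1 and CELSR2, as for CCND1, AZD9496 libraries lay near the vehicle mean on TPM as deposited and AZD-SAR libraries well below it. The median-of-ratios factor had a median of 1.08 in AZD9496 libraries and 0.967 in DMSO libraries. Scaling, which divides by this factor, therefore tends to lower AZD9496 levels relative to vehicle.

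Secreted and extracellular products were also among the 15: SERPINA3, a serine protease inhibitor, differed by -2.13 ± 0.15, and SULF2, a sulfatase that edits heparan sulfate chains, by -1.78 ± 0.22. RAPGEFL1, related to exchange factors for the GTPase Rap, differed by -2.22 ± 0.20, AMZ1, a metalloprotease, by -1.80 ± 0.14, ID4, a dominant-negative helix-loop-helix factor, by -1.74 ± 0.18, KIF12, a kinesin, by -1.73 ± 0.34 and SLC25A48, a mitochondrial carrier, by -1.72 ± 0.29. KRT15 stood out by its position: it had 2.89, 6.01 and 12.7 TPM in AZD-SAR libraries and 18.1, 23.7 and 27.7 TPM in AZD9496 libraries, with 10.4 TPM in DMSO libraries between them. The noncoding RNAs were LINC01016, at 0.330, 1.52 and 1.66 TPM in AZD-SAR libraries and 7.07, 10.03 and 11.9 TPM in AZD9496 libraries, and DSCAM-AS1. DSCAM-AS1 had 24.1, 25.8 and 32.7 TPM in AZD-SAR libraries, against 88.5, 102.5 and 109.6 TPM in AZD9496 libraries and 115 TPM in DMSO libraries (-1.87 ± 0.09). The libraries were stranded, but the counting is not stated to use strand. Reads of DSCAM-AS1 and of DSCAM, its partner on the other strand, may therefore not be separated. DSCAM was listed at 0.134 to 0.232 TPM in AZD-SAR libraries and 0.848 to 0.961 TPM in AZD9496 libraries, under the minimum for testing.

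The largest rises were smaller in size than the largest falls, and 14 of the 15 genes also averaged above vehicle in AZD-SAR libraries. That position was common to the called set. Of the 270 genes called higher, 2 (0.74%) had both ligand means below DMSO and 0 (0.0%) had that of AZD-SAR alone below. Over all genes tested these shares were 26.9% and 16.1%. MCF2L-AS1, a noncoding RNA, had 8.08, 12.5 and 20.1 TPM in AZD-SAR libraries, against 2.94, 4.75 and 6.85 TPM in AZD9496 libraries (1.25 ± 0.25, limma adjusted p = 0.0116). Its antisense partner MCF2L did not share the difference (-0.02 ± 0.12), though whether reads were counted by strand is not given in the sources used here, so reads of the pair may not be separated. CD55, the complement decay-accelerating factor, had 253.7, 335 and 433 TPM in AZD-SAR libraries, against 128, 154 and 167 TPM in AZD9496 libraries and 98.5 TPM in DMSO libraries (1.16 ± 0.13, limma adjusted p = 0.000335). Its lowest AZD-SAR value came from AZD-SAR 300 nM replicate 3 and still lay above every AZD9496 library. SLC22A4, an organic cation transporter, had 7.15, 8.92 and 9.82 TPM in AZD-SAR libraries and 3.03, 3.56 and 4.73 TPM in AZD9496 libraries (1.08 ± 0.11). MBOAT2, a lysophospholipid acyltransferase, had 61.95, 74.0 and 105.3 TPM in AZD-SAR libraries and 30.0, 42.2 and 48.8 TPM in AZD9496 libraries (0.92 ± 0.16). BAMBI, a pseudoreceptor of the TGF-beta family, POU2F3, a transcription factor of tuft cells, and TM4SF1, a membrane protein of the tetraspanin-related family, differed by 0.92 ± 0.16, 0.88 ± 0.18 and 0.94 ± 0.16. PLCXD2, PHLDB2, GNG13, FAM107B and GRAMD4 were higher by 0.86 to 1.05, the last 2 of them not without the filter on low values (limma adjusted p = 0.0542 for FAM107B and 0.0523 for GRAMD4). TBATA (0.98 ± 0.24) lost its call without AZD9496 30 nM replicate 2 (limma adjusted p = 0.0579), without AZD-SAR 30 nM replicate 1 (0.0573) or without AZD-SAR 300 nM replicate 2 (0.0534).

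Among estrogen-repressed genes most calls were in the higher direction. Of 15 such genes, all tested, 5 were higher and 1 lower, with a median of 0.12, and 7 were higher and 1 lower after scaling. BLNK, the B cell linker adaptor, had 38.1, 41.2 and 53.1 TPM in AZD-SAR libraries, against 18.8, 22.7 and 25.5 TPM in AZD9496 libraries and 10.1 TPM in DMSO libraries (0.90 ± 0.11, limma adjusted p = 0.000579). ABCA12, a lipid transporter, had 124, 142 and 177 TPM in AZD-SAR libraries and 79.7, 90.9 and 108 TPM in AZD9496 libraries (0.65 ± 0.10). BCAS1 was also higher, at 93.9, 112 and 127 TPM in AZD-SAR libraries and 69.4, 82.2 and 95.4 TPM in AZD9496 libraries, as were TP53INP1 and CCNG2 (0.38 and 0.36, the second with a limma adjusted p of 0.0471). KLF6, a zinc finger transcription factor on the same list, was lower, at 16.8, 19.5 and 20.9 TPM in AZD-SAR libraries and 23.6, 25.9 and 28.0 TPM in AZD9496 libraries (-0.40 ± 0.08). The aryl hydrocarbon receptor target CYP1A1, a xenobiotic-metabolising cytochrome, had 5.55, 8.08 and 9.21 TPM in AZD-SAR libraries, against 2.17, 3.12 and 5.02 TPM in AZD9496 libraries and 0.316 TPM in DMSO libraries (0.98 ± 0.17, limma adjusted p = 0.00565). It was the 1 gene called of the 6 tested on that receptor's list; after scaling NQO1, a quinone reductase, was called higher as well (0.41, limma adjusted p = 0.00767, against 0.29 and 0.0548 as deposited), and the list had 2 higher genes without AZD9496 30 nM replicate 1 or AZD9496 300 nM replicate 1, and 1 lower gene without AZD9496 300 nM replicate 3 or AZD-SAR 300 nM replicate 1.

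Of 44 genes of DNA replication tested, 24 were called lower, 20 did not pass and none was called higher, with a median of -0.65, and 22 were lower after scaling. CDT1, which loads the replicative helicase onto origins, had 3.11, 3.77 and 4.38 TPM in AZD-SAR libraries, against 8.17, 11.4 and 15.3 TPM in AZD9496 libraries and 23.1 TPM in DMSO libraries (-1.39 ± 0.15, limma adjusted p = 0.000291). DTL, a substrate receptor of the ubiquitin ligase that removes CDT1 in S phase, had 6.01, 10.03 and 14.2 TPM in AZD-SAR libraries and 21.2, 25.6 and 36.6 TPM in AZD9496 libraries (-1.33 ± 0.18). MCM5, a helicase subunit, had 2.83, 5.43 and 7.26 TPM in AZD-SAR libraries and 10.5, 13.5 and 14.9 TPM in AZD9496 libraries (-1.25 ± 0.15), and the other helicase subunits MCM2, MCM3, MCM6 and MCM7 fell by 0.77 to 0.97 on the log2 scale. CDC6, the origin licensing factor with the largest difference on the list (-1.60 ± 0.37), was the least steady: it had 0.434, 1.98 and 5.01 TPM in AZD-SAR libraries and 4.24, 9.02 and 12.8 TPM in AZD9496 libraries, which overlap. Its call was lost without AZD9496 30 nM replicate 2 (limma adjusted p = 0.0541), AZD9496 300 nM replicate 1 (0.0505) or AZD9496 300 nM replicate 2 (0.0502).

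The promoters of these genes are shown because several members that fell carry an E2F site, the binding sequence of the factors that activate S phase genes. RefSeq windows of the 250 bases before the annotated start (GRCh38.p14) were searched on both strands for TTTCGCGC, TTTGGCGC, TTTCCCGC and TTTGCCGC. Of the 18 DNA replication genes called lower that had a window, 7 held a match (38.9%). Matches were found in 4.58% of the 6439 windows of tested genes and 7.42% of the 633 windows of genes called lower. Over all 22114 windows the share was 2.69%. Windows of replication genes that were not called were not counted, so these shares cannot separate the fall from membership of the list. Shown here, chosen after their values were seen, are the windows with a match of the 4 genes with the largest differences, 5′ to 3′ on the strand of the gene, with the E2F sequence in capitals: CDT1 at chr16:88803539-88803788 (plus strand), DTL at chr1:212035498-212035747 (plus), MCM6 at chr2:135876444-135876693 (minus) and MCM3 at chr6:52284743-52284992 (minus).
CDT1: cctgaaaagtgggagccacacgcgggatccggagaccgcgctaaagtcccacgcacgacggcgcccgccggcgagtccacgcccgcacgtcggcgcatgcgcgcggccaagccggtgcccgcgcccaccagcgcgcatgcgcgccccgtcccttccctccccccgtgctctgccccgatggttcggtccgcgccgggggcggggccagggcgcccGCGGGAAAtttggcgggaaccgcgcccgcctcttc
DTL: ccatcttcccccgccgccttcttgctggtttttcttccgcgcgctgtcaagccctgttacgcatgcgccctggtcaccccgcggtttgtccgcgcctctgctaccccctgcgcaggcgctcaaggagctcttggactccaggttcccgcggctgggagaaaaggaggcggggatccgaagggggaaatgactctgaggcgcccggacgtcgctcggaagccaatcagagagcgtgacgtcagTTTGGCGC
MCM6: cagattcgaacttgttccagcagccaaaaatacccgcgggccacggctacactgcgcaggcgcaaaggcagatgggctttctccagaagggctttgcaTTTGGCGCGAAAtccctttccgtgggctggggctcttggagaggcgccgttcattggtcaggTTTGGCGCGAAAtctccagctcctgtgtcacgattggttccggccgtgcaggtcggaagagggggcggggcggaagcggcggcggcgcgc
MCM3: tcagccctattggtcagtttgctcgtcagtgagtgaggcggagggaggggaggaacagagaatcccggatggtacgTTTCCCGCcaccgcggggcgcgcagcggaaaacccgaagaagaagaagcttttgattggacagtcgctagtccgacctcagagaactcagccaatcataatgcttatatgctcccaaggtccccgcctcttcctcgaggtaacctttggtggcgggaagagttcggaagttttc
The matches begin 35 bases before the start in CDT1, 8 bases before it in DTL and 174 bases before it in MCM3. MCM6 holds 4 matches that begin between 152 and 86 bases before the start, as 2 overlapping pairs on opposite strands. The CDC6 window held none of these sequences, and other forms of the E2F site were not searched. A match describes the sequence and is not evidence of binding.

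A minority of the regulators and enzymes upstream of replication were called. Of 30 regulators of the G1 to S transition, 11 were lower and none higher (9 lower after scaling, and 7 without AZD9496 300 nM replicate 2), with a median of -0.38. E2F1, an activator of S phase genes, had 3.79, 5.20 and 5.66 TPM in AZD-SAR libraries, against 12.2, 14.5 and 16.6 TPM in AZD9496 libraries and 22.1 TPM in DMSO libraries (-1.38 ± 0.11, limma adjusted p = 3.76e-05). MYBL2, a transcription factor of cycling cells, had 43.7, 49.9 and 55.3 TPM in AZD-SAR libraries and 76.3, 99.4 and 120.1 TPM in AZD9496 libraries, and E2F2 differed by -0.84 ± 0.18. The 11 lower regulators also included inhibitors of the cell cycle, CDKN1A and CDKN2C (-0.79 and -0.59), and the repressors E2F7 and E2F8 (-0.72 and -0.44). Of 28 nucleotide synthesis genes, 8 were lower (6 after scaling) and 1 higher. RRM2, the small subunit of ribonucleotide reductase, had 28.0, 40.4 and 56.3 TPM in AZD-SAR libraries, against 86.2, 97.9 and 100.9 TPM in AZD9496 libraries and 163 TPM in DMSO libraries (-1.23 ± 0.13). TK1, thymidine kinase, had 17.0, 24.2 and 29.2 TPM in AZD-SAR libraries and 39.6, 51.0 and 53.5 TPM in AZD9496 libraries. The calls of CTPS2 (0.85, a CTP synthase) and UMPS (-0.72, of pyrimidine synthesis) were lost without any of 7 and 8 of the 12 libraries, with adjusted p-values up to 0.0714 and 0.0908 by limma, and that of UMPS also with scaling.

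Mitotic and recombination genes had medians smaller in size than that of the DNA replication list, and the proliferation marker MKI67 was not called. Of 44 mitosis genes, 18 were lower and none higher, with a median of -0.31; 12 were lower after scaling, 11 without AZD9496 300 nM replicate 1 and 10 without AZD9496 300 nM replicate 2. CDCA5, which protects sister chromatid cohesion, had 8.99, 13.8 and 20.2 TPM in AZD-SAR libraries and 27.4, 32.6 and 43.3 TPM in AZD9496 libraries (-1.23 ± 0.18, limma adjusted p = 0.00253). CDK1, the mitotic kinase, had 37.0, 81.1 and 91.6 TPM in AZD-SAR libraries, against 106, 155 and 199 TPM in AZD9496 libraries and 331 TPM in DMSO libraries (-1.08 ± 0.22). The kinase AURKB (-0.99) and the checkpoint protein MAD2L1 (-0.95) lost their calls without any of 6 and 4 of the 12 libraries, with limma adjusted p up to 0.0621 and 0.0772, and MAD2L1 also with scaling. MKI67 had 36.7, 44.4 and 55.6 TPM in AZD-SAR libraries, against 42.8, 50.9 and 59.3 TPM in AZD9496 libraries and 56.1 TPM in DMSO libraries, and its difference of -0.19 had a 95% interval of -0.42 to 0.04 (limma adjusted p = 0.263). Of 28 genes of homologous recombination and Fanconi repair, 12 were lower and none higher (8 after scaling), with a median of -0.48. EXO1, a nuclease, XRCC3, a homologous recombination protein, and FANCG, of the Fanconi core complex, differed by -0.92 ± 0.16, -0.89 ± 0.12 and -0.88 ± 0.15. BRCA1 (-0.83 ± 0.20) lost its call with scaling and without any of 6 of the 12 libraries (limma adjusted p up to 0.0627 and 0.0613).

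**Figure D2:**
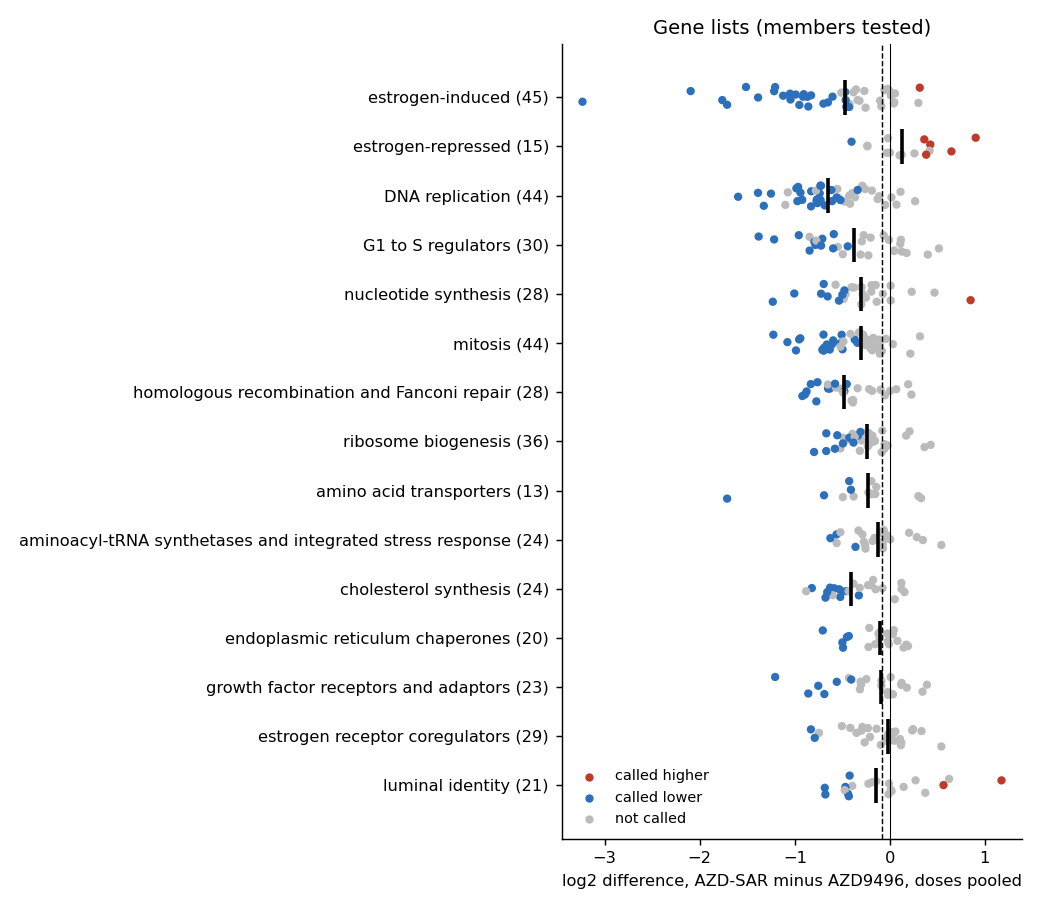
Log2 differences, AZD-SAR minus AZD9496 with doses pooled (horizontal axis), of the members of 15 gene lists (rows, with the number tested); points are genes, coloured by call, black bars are list medians and the dashed line is the median of all genes tested (-0.08). The DNA replication list has the lowest median (-0.65) and no gene called higher, and the estrogen-repressed list has 5 of its 6 called genes on the right.

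Genes of growth and biosynthesis were lower in part. Among 13 amino acid transporters tested, 4 were lower and none higher, with 2 higher after scaling. SLC7A5, the large neutral amino acid transporter, had 18.6, 29.3 and 31.6 TPM in AZD-SAR libraries, against 79.7, 93.7 and 101.7 TPM in AZD9496 libraries and 90.8 TPM in DMSO libraries (-1.71 ± 0.12, limma adjusted p = 1.77e-05). Its partner chain SLC3A2 had 33.4, 44.7 and 48.3 TPM in AZD-SAR libraries and 66.8, 69.4 and 73.4 TPM in AZD9496 libraries (-0.69 ± 0.09), and the cationic amino acid transporters SLC7A2 and SLC7A1 differed by -0.43 and -0.41. For SLC7A5 and SLC3A2 the AZD9496 libraries lay around the vehicle mean on TPM as deposited. Of 24 cholesterol synthesis genes, 10 were lower and none higher (6 after scaling), with a median of -0.41. HMGCS1, which makes the precursor of mevalonate, had 29.8, 36.0 and 42.1 TPM in AZD-SAR libraries and 53.7, 64.4 and 81.02 TPM in AZD9496 libraries (-0.82 ± 0.11), and SQLE, squalene epoxidase, had 112, 134 and 142 TPM in AZD-SAR libraries and 191, 202 and 222 TPM in AZD9496 libraries (-0.66 ± 0.07). DHCR7, the last enzyme of the pathway, differed by -0.63 ± 0.12. STARD4, a sterol carrier (-0.68), lost its call with scaling and without any of 8 of the 12 libraries (limma adjusted p up to 0.0872).

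Ribosome biogenesis and the stress lists gave less steady counts, to be read beside the 8.65% of all genes tested that were called lower. Of 36 ribosome biogenesis genes, 10 were lower and none higher, with a median of -0.24, and 5 were lower after scaling. The count was 4 without AZD9496 30 nM replicate 2, 5 without AZD9496 30 nM replicate 3, 3 without either AZD9496 300 nM replicate 1 or replicate 2, 3 without AZD-SAR 30 nM replicate 1 and 5 without AZD-SAR 30 nM replicate 3. NOP14, a factor of the small ribosomal subunit, had 6.60, 8.59 and 11.4 TPM in AZD-SAR libraries and 14.3, 15.5 and 17.7 TPM in AZD9496 libraries (-0.80 ± 0.13, limma adjusted p = 0.00368), and RRP9, of ribosomal RNA processing, differed by -0.58 ± 0.13. GNL3 and TSR1 (-0.67 each) lost their calls without any of 6 and 5 of the 12 libraries (limma adjusted p up to 0.0749 and 0.061), and GNL3 also with scaling. Of 24 genes of the aminoacyl-tRNA synthetases and the integrated stress response, 3 were lower (2 after scaling, with 1 higher), led by MARS, the methionyl-tRNA synthetase, at 39.8, 51.7 and 54.1 TPM in AZD-SAR libraries and 66.04, 75.8 and 83.9 TPM in AZD9496 libraries. That count was 1 without AZD9496 30 nM replicate 2 and 7 without AZD-SAR 300 nM replicate 3. ATF3, a stress transcription factor (-0.56), lost its call without AZD9496 30 nM replicate 2 (limma adjusted p = 0.0501), and VARS, the valyl-tRNA synthetase (-0.36), with scaling and without any of 9 libraries.

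Among 20 endoplasmic reticulum chaperones and their regulators, 5 were lower and none higher. After scaling 3 were lower, and the same count of 3 was reached without any 1 of 7 of the 12 libraries. HYOU1 had 17.8, 25.3 and 31.1 TPM in AZD-SAR libraries, against 29.6, 40.9 and 48.1 TPM in AZD9496 libraries and 26.3 TPM in DMSO libraries, so that the vehicle mean fell within the AZD-SAR range. HSP90B1 had 278, 310.4 and 356 TPM in AZD-SAR libraries and 379.7, 452 and 501 TPM in AZD9496 libraries (-0.50 ± 0.09). SDF2L1 and PDIA4 lost their calls with scaling and without any of 10 and 8 libraries (limma adjusted p up to 0.109 and 0.081). CALR, calreticulin, was not called: it had 585, 701 and 750.5 TPM in AZD-SAR libraries, against 665, 753 and 798 TPM in AZD9496 libraries and 303 TPM in DMSO libraries, with a 95% interval of -0.28 to 0.08 for the difference of -0.10.

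Signalling genes moved one at a time. Of 23 growth factor receptors and adaptors, 6 were lower and none higher (5 lower and 1 higher after scaling). RET, a receptor tyrosine kinase, had 1.89, 2.28 and 3.12 TPM in AZD-SAR libraries, against 5.90, 7.15 and 7.33 TPM in AZD9496 libraries and 8.82 TPM in DMSO libraries (-1.21 ± 0.11, limma adjusted p = 9.38e-05). IGFBP4, which binds insulin-like growth factors, had 30.5, 43.6 and 50.3 TPM in AZD-SAR libraries and 66.1, 76.1 and 87.6 TPM in AZD9496 libraries (-0.86 ± 0.11), and the adaptor GRB10 differed by -0.69 ± 0.15. FGFR3, a fibroblast growth factor receptor (-0.75), lost its call with scaling and without any of 9 libraries (limma adjusted p up to 0.0978). ERBB2 had 33.7, 53.6 and 65.6 TPM in AZD-SAR libraries and 47.8, 49.8 and 55.7 TPM in AZD9496 libraries, a difference of -0.02 with a 95% interval of -0.33 to 0.29. Of 13 MAPK feedback and immediate early genes tested, 2 were lower and 1 higher. IER3, an early response gene, had 107, 141 and 164 TPM in AZD-SAR libraries, against 306, 375 and 419 TPM in AZD9496 libraries and 315 TPM in DMSO libraries (-1.41 ± 0.11, limma adjusted p = 2.68e-05); EGR3 was the other lower gene and PHLDA1 (0.48 ± 0.09) the higher one.

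Luminal identity genes did not share a direction. Of 21 tested, 6 were lower and 2 higher, with 5 lower and 4 higher after scaling. KRT19 had 1959, 2089 and 2218 TPM in AZD-SAR libraries, against 2908, 3348 and 3666 TPM in AZD9496 libraries and 2528 TPM in DMSO libraries (-0.68 ± 0.08, limma adjusted p = 0.000617), and AGR2, a secretory protein disulfide isomerase, had 33.9, 40.6 and 63.02 TPM in AZD-SAR libraries and 63.7, 68.6 and 78.1 TPM in AZD9496 libraries, beside 39.5 TPM in DMSO libraries. KRT18 differed by -0.44 ± 0.09. GATA3, the luminal transcription factor, was higher, at 3684, 5372 and 7036 TPM in AZD-SAR libraries, against 1392, 2363 and 3982 TPM in AZD9496 libraries and 1116 TPM in DMSO libraries (1.17 ± 0.27, limma adjusted p = 0.0216). The GATA3 ranges overlapped, and the call was lost without AZD9496 30 nM replicate 2 (0.0528) or AZD9496 300 nM replicate 2 (0.0577). KRT7 (0.56) lost its call without any of 8 libraries (limma adjusted p up to 0.0767). Of 9 apocrine and androgen-responsive genes, TMPRSS2, a membrane protease, was higher (0.85 ± 0.18) and FKBP5, a cochaperone of steroid receptors, lower (-0.66 ± 0.13), with 3 higher after scaling, without AZD9496 30 nM replicate 1 or without AZD-SAR 300 nM replicate 3. PIP, the prolactin-induced protein, had 108, 156 and 239 TPM in AZD-SAR libraries, against 85.1, 99.99 and 138 TPM in AZD9496 libraries and 31.9 TPM in DMSO libraries (0.64, 95% interval 0.22 to 1.06, limma adjusted p = 0.0556), and passed the threshold with scaling (0.75, adjusted p = 0.042).

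Few members of the remaining lists were called, and most of those calls were lost when any 1 of several libraries was left out. Beside them, 8.65% of all genes tested were called lower and 1.87% higher. The BCL2 family and p53 target lists had a larger share of lower calls. Their counts ran from 1 to 5 and from 0 to 3 when 1 library was left out. These few calls are therefore not read as results about the lists. Of 29 receptor coregulators, 2 were lower: PELP1 and PHB2 (-0.83 and -0.79), which lost their calls without any of 9 and 8 libraries (limma adjusted p up to 0.0977 and 0.0799), and PELP1 also with scaling; the count was 5 without AZD-SAR 300 nM replicate 3. Of 14 regulators of the BCL2 family, 4 were lower (2 after scaling): BCL2 itself, an inhibitor of apoptosis and estrogen target, at 15.1, 19.3 and 22.8 TPM in AZD-SAR libraries and 23.8, 25.5 and 28.5 TPM in AZD9496 libraries (-0.43 ± 0.09), and the death-promoting BAD, BAK1 and BID (-0.98, -0.68 and -0.66), which lost their calls without any of 6, 10 and 9 libraries. All 14 BCL2 family genes tested had a difference below 0, with a median of -0.38 beside -0.08 over all genes tested. After scaling, 13 were below 0, with a median of -0.28. Of 15 p53 targets, the cell cycle inhibitor CDKN1A and the nuclease AEN (-0.79 and -0.74) were lower, with calls lost without any of 6 and 4 libraries. Of 22 interferon-stimulated genes, OAS1, a sensor of double-stranded RNA, was higher, at 6.12, 7.22 and 10.7 TPM in AZD-SAR libraries and 3.51, 4.05 and 5.71 TPM in AZD9496 libraries (0.67 ± 0.15), but was not called when the spread was estimated over all 39 libraries (limma adjusted p = 0.185). The 1 basal and the 2 stromal, endothelial and immune genes that passed the filter were not called by limma on TPM as deposited. COL1A1, a fibrillar collagen chain on the stromal list, averaged 14.4 TPM in AZD-SAR libraries and 10.1 TPM in AZD9496 libraries (0.45 ± 0.14, limma adjusted p = 0.0617); it was called higher after scaling (0.55, adjusted p = 0.0416), and 1 gene of that list was called higher without AZD-SAR 30 nM replicate 3 or AZD-SAR 300 nM replicate 3.

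Set beside vehicle, most called genes had both ligand means on the same side of the DMSO mean, and a minority had them on opposite sides. Among the 1246 genes called lower, both ligands averaged below DMSO for 742 genes (59.6%), whereas for 464 (37.2%) AZD-SAR lay below and AZD9496 at or above DMSO; over all genes tested the second arrangement was found for 16.1%. With scaled values these counts were 951 and 267 of the 1246 (21.4%), beside 9.46% of all genes tested. KRT15, KRT19, HYOU1, IER3 and GRB10 had this arrangement on TPM as deposited. Among the 270 genes called higher, both ligands averaged at or above DMSO for 224 (82.96%; 205 with scaled values), beside 51.9% of all genes tested. SAR439859, which carries the hybrid's side chain on its own scaffold, averaged 2.53 TPM for KRT13, 4.53 TPM for IL17RB, 80.2 TPM for CCND1, 26.1 TPM for SLC7A5, 304 TPM for CD55 and 43.6 TPM for BLNK over its 6 libraries. Of the 15 genes with the largest falls, 13 had a SAR439859 mean within the range of the AZD-SAR libraries (not CITED1 and STC1) and none within that of the AZD9496 libraries. Of the 15 largest rises, 12 were within the AZD-SAR range (not CYP1A1, GNG13 and GRAMD4) and 2, GNG13 and GRAMD4, within the AZD9496 range. SAR439859 30 nM replicates 1 and 3 stood farthest of the 39 libraries from their group, at distances of 0.820 and 0.962; MALAT1 was listed at 0 in replicate 1, and 1340 tested symbols were at 0 in replicate 3. Without both, an alternative chosen after seeing the data, the means over the other 4 libraries were 3.20 TPM for KRT13 and 312 TPM for CD55, 13 of the 15 falls (not STC1 and SULF2) and 11 of the 15 rises (FAM107B also outside) lay within the AZD-SAR range, and 0 and 2 within the AZD9496 range. These genes were chosen for the difference between AZD-SAR and AZD9496, and no test was made. The labels give 2 of the 3 DMSO libraries the same index sequence as a library of AZD-SAR or AZD9496, and whether vehicle and ligand libraries were sequenced together is not given, so these positions are descriptions.

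The CD55 window is shown as that of the largest protein-coding rise among genes that reached 5 TPM and whose ligands did not overlap at either dose. It lies at chr1:207321428-207321677 on the plus strand (RefSeq, GRCh38.p14), and the capitals mark GGTCA or its reverse complement TGACC, the core sequence of an estrogen response element, found in 30.0% of the 6439 windows of tested genes, 29.1% of the 110 windows of genes called higher and 27.8% of the 633 windows of genes called lower.
CD55: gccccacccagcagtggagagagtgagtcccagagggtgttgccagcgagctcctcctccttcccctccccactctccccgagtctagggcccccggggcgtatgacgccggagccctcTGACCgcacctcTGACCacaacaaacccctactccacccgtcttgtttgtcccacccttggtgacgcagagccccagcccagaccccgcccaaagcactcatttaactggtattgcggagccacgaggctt
The 2 core sequences begin 131 and 119 bases before the start, both in the same orientation, and the full palindromic element was not found in this window. The promoter table was read for PGR, GREB1, TFF1, KRT13 and CITED1 without an entry.

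At matched doses, the counts of called genes gave no stable order of the doses, and the test of the difference between doses called no gene. At 30 nM, 90 genes were lower (0.625% of those tested) and 9 higher (0.0625%). At 300 nM, 440 were lower (3.05%) and 125 higher (0.868%). After scaling, 80 were lower and 25 higher at 30 nM, and 418 lower and 292 higher at 300 nM. Of the 90 genes lower at 30 nM, 77 (85.6%) were also lower at 300 nM, where they made up 17.5% of the list; the dose groups share no libraries but share 1 estimate of the spread. The test of the 300 nM difference minus the 30 nM difference called 0 genes (0.0%) by limma, with 646 genes at an unadjusted p under 0.05. KRT13 had 3.11, 3.65 and 1.61 TPM in the AZD-SAR libraries at 30 nM and 2.89, 3.13 and 2.01 TPM at 300 nM, against 45.1, 32.1 and 32.7 TPM in the AZD9496 libraries at 30 nM and 31.8, 27.1 and 34.3 TPM at 300 nM. Its differences were -3.34 ± 0.23 at 30 nM and -3.13 ± 0.23 at 300 nM. CCND1 differed by -1.20 ± 0.13 and -1.24 ± 0.13, GREB1 by -1.49 ± 0.21 and -1.53 ± 0.21 and IL17RB by -2.37 ± 0.13 and -2.11 ± 0.13 at 30 and 300 nM.

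PGR passed the threshold at the higher dose only, with -0.57 ± 0.21 at 30 nM (limma adjusted p = 0.30) and -1.33 ± 0.21 at 300 nM (0.0095). It had 4.59, 2.84 and 4.64 TPM in the AZD-SAR libraries at 30 nM and 2.05, 3.46 and 2.26 TPM at 300 nM, against 7.19, 5.95 and 5.98 TPM in the AZD9496 libraries at 30 nM and 6.96, 9.27 and 7.66 TPM at 300 nM. The difference between doses was -0.76 with a 95% interval of -1.41 to -0.11 and an adjusted p of 0.92 by limma, and the corresponding value for CYP1A1, which differed by 0.63 ± 0.20 at 30 nM and 1.34 ± 0.20 at 300 nM, was 0.71 (0.09 to 1.34). The counts at single doses moved with 1 library and with the libraries fitted. When only the 6 libraries of a dose were fitted, 59 genes were called at 30 nM and 20 at 300 nM. Leaving out AZD-SAR 300 nM replicate 3 gave 1787 lower and 863 higher genes at 300 nM, and leaving out any of the other 5 libraries of that dose gave 78 to 295 calls, of which the 78 without AZD9496 300 nM replicate 2 lie below the 99 calls at 30 nM; at 30 nM, leaving out any 1 of its 6 libraries gave 30 to 56 calls.

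**Figure D3:**
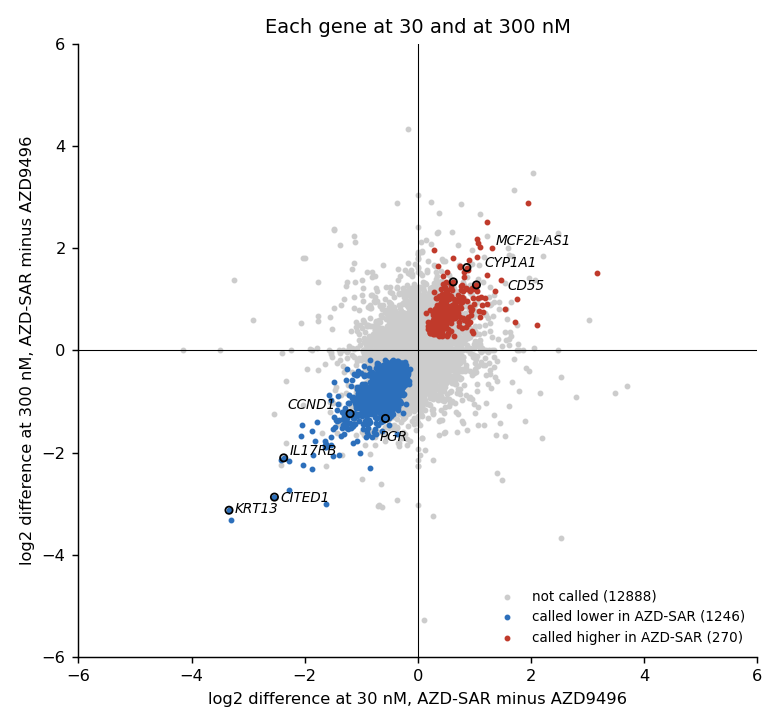
Log2 difference, AZD-SAR minus AZD9496, at 30 nM (horizontal axis) and at 300 nM (vertical axis) for the 14404 genes tested, coloured by the call with doses pooled; 1 gene lies outside the axes. KRT13, CITED1 and IL17RB lie far down the diagonal at both doses, while the named higher genes CD55, MCF2L-AS1 and CYP1A1 lie between 0.63 and 1.62 at each dose.

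The same side chain was also placed on GDC-0810, giving GDC-SAR, in 12 libraries that are not shared with the AZD9496 scaffold. GDC-SAR against GDC-0810 gave 256 genes lower (1.78%) and 228 higher (1.58%) under the same model. After scaling, 296 were lower and 209 higher, beside 722 and 618 on the AZD9496 scaffold. The genes in common were 182 lower, which are 14.6% of the AZD9496 scaffold's 1246 and 71.1% of the GDC-0810 scaffold's 256, and 81 higher, 30.0% of 270 and 35.5% of 228. On TPM as deposited, opposite calls were made for 2 genes, 1 in each direction. After scaling, 188 lower genes were in common, 26.0% of 722 and 63.5% of 296. The higher genes in common were then 120, 19.4% of 618 and 57.4% of 209. Of the 1246 genes lower with AZD-SAR, 907 (72.8%) had a difference of the same sign on the GDC-0810 scaffold, and of the 270 higher genes 222 (82.2%) did, beside 55.2% of all genes tested. Their medians on the GDC-0810 scaffold were -0.13 and 0.34. Across all genes the differences on the 2 scaffolds had a Pearson r of 0.234, given as a description since genes are not independent replicates.

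Of the 15 genes with the largest falls, 13 were also called lower on the GDC-0810 scaffold, and AMZ1 and SULF2 were not (-0.65 and -0.53, limma adjusted p = 0.0582 and 0.402). Of the 15 largest rises, 7 were also called higher there. KRT13 had 1.0, 3.0 and 5.84 TPM in GDC-SAR libraries, against 38.3, 65.97 and 86.7 TPM in GDC-0810 libraries (-3.96, limma adjusted p = 2e-05), and GREB1 had 0.764, 1.22 and 2.12 TPM in GDC-SAR libraries, against 5.49, 7.08 and 8.86 TPM in GDC-0810 libraries (-1.81). CD55 was higher on both, with 270.5, 315 and 354 TPM in GDC-SAR libraries and 134, 158 and 218 TPM in GDC-0810 libraries. Of the gene lists, estrogen-induced genes had 24 lower and 1 higher of 45 on the GDC-0810 scaffold and DNA replication 15 lower of 44. Mitosis had 2 lower of 44, cholesterol synthesis 1 lower and 1 higher of 24 and ribosome biogenesis none called of 36 by limma. Their medians there were -0.18, -0.15 and -0.15, beside 0.02 over all genes tested. Over all genes, 1.78% were called lower in this pair, against 8.65% on the AZD9496 scaffold. The test of the difference between scaffolds called no member of these lists. TFF1 was called on the AZD9496 scaffold but not on the GDC-0810 scaffold, where it had 522, 715 and 813 TPM in GDC-SAR libraries and 595, 881 and 1041 TPM in GDC-0810 libraries; the difference between scaffolds was -0.59 (95% interval -0.99 to -0.19, limma adjusted p = 0.119) and is not shown at this threshold.

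The test of the difference between scaffolds called 3 genes (0.0208% of those tested), with 2735 at an unadjusted p under 0.05. CFDP1, a chromatin-associated protein, had 52.7, 60.4 and 67.2 TPM in AZD-SAR libraries and 71.2, 88.2 and 99.6 TPM in AZD9496 libraries, and 63.98, 66.2 and 73.9 TPM in GDC-SAR libraries and 63.6, 65.3 and 69.3 TPM in GDC-0810 libraries (difference -0.57 ± 0.10, limma adjusted p = 0.0315). FXR1, an RNA-binding protein, had 118, 152 and 168 TPM in AZD-SAR libraries and 156, 177 and 212 TPM in AZD9496 libraries, and 153, 158 and 174 TPM in GDC-SAR libraries and 110.2, 133 and 146 TPM in GDC-0810 libraries (difference -0.62 ± 0.11). After median-of-ratios scaling none of the 3 passed by limma (adjusted p = 0.0685 for CFDP1 and 0.09 for FXR1). There, 2388 genes had an unadjusted p under 0.05 by limma. Without single libraries the number of calls ran between 0 and 222. CFDP1 and FXR1 lost their calls without any 1 of GDC-0810 30 nM replicates 1 to 3, among other libraries.

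**Figure D4:**
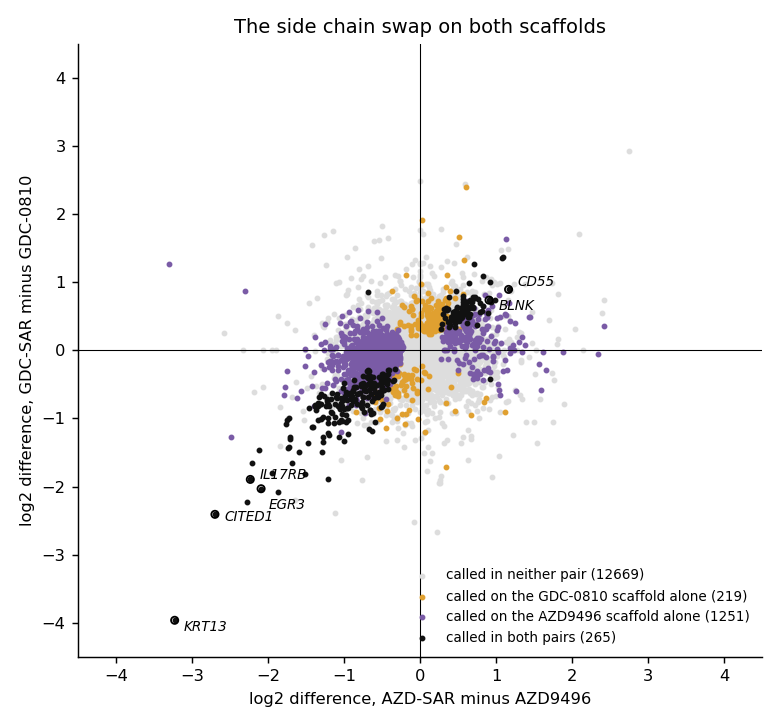
Log2 difference on the AZD9496 scaffold, AZD-SAR minus AZD9496 (horizontal axis), and on the GDC-0810 scaffold, GDC-SAR minus GDC-0810 (vertical axis), for the 14404 genes tested with doses pooled. The 265 genes called in both pairs (black) run along the diagonal with KRT13 and CITED1 at the low end, and the 1251 called on the AZD9496 scaffold alone (purple) lie mostly near 0 on the vertical axis.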

How the data were processed

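Total RNA of HCC1428-LTED cells was sequenced from stranded NuGEN libraries, per the labels' protocols. The deposited table holds TPM for 46706 symbols in 39 libraries. Reads were aligned with STAR to GRCh38, per the submitters' processing notes; versions, the counting tool, the annotation and read depth were not given in the sources used here, so no counting error can be stated. Every deposited TPM column sums to 1000000, so a change in a very abundant RNA moves all other values. Libraries were grouped by the labels. Replicate numbers follow accession order, and the labels do not say whether libraries of the same number belong together. Replicate 1 had the most symbols above 0 in every AZD-SAR and AZD9496 group. It had 25069 to 26756, against 20990 to 24526 in replicates 2 and 3. The fits did not use the replicate number, and an effect shared by libraries of the same number was not tested. The members and gene lists were chosen with earlier results of these data known.

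The 14404 symbols whose TPM averaged 1 or more across the 39 libraries were tested with limma 3.58.1 (R 4.3.3) on log2(TPM + 1), with an intensity trend and Benjamini-Hochberg adjustment over all genes tested, called under 0.05. The 12 libraries were fitted with ligand and dose, or with 1 mean per ligand and dose; the scaffold test used 24 libraries. Fits were tested on simulated data. Alternatives were median-of-ratios scaling (over 12643 symbols), a pseudocount of 0.1, no filter, all 39 libraries, the 6 libraries of a dose, no dose term and each library left out. Named genes were a set list, the 15 called genes with the largest differences in each direction (annotated as protein-coding or long noncoding, at least 5 TPM, no overlap of the ligands at either dose) and the 4 largest called members of each gene list; RARA, STC2, SLC9A3R1 and other members beyond the 4 were chosen after their values were seen. By that rule 139 higher and 819 lower genes qualified. Symbols were matched to GENCODE 29 or RefSeq names (12315 of those tested). Of the genes called between scaffolds, 1 is not reported here.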

Additional observations from a re-analysis of the deposited data

Results flagged for a closer look

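On TPM as deposited, the test of the difference between scaffolds called FXR1 and CFDP1, but neither call was steady. The AZD-SAR minus AZD9496 difference less the GDC-SAR minus GDC-0810 difference was -0.62 on the log2 scale for FXR1 and -0.57 for CFDP1, each with an adjusted p of 0.0315 by limma over 24 libraries. AZD9496 had the highest median of the 4 ligands for CFDP1, and GDC-0810 the lowest for FXR1. Neither passed after scaling or with no filter on low values. FXR1 was not called within the AZD9496 scaffold (-0.31, limma adjusted p = 0.0523). Both lost the call without any 1 of GDC-0810 30 nM replicates 1 to 3 and GDC-0810 300 nM replicates 1 and 2. They also lost it without any 1 of the GDC-SAR 300 nM libraries. The same held without any 1 of AZD9496 30 nM replicates 2 and 3 and AZD9496 300 nM replicates 1 and 2. It held too without AZD-SAR 300 nM replicate 1 or 2.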

How the results depend on the processing

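Of the 106 genes and differences named by rule, 71 kept a call in every alternative and none reversed. Scaling ended 14 and added 1, no filter ended 29 and the pseudocount of 0.1 ended none. With no filter on low values, which raised the genes tested to 36173, calls numbered 688 with doses pooled, 64 at 30 nM, 198 at 300 nM, 316 for GDC-SAR against GDC-0810 and 0 for the difference between scaffolds (3932 at an unadjusted p under 0.05); median-of-ratios scaling gave 0 for that difference as well. Fitting only the 6 libraries of a dose, with fewer libraries to estimate the spread, gave 59 calls at 30 nM and 20 at 300 nM. Leaving out 1 library gave 685 to 2357 calls with doses pooled, 30 to 56 at 30 nM, 78 to 2650 at 300 nM, 0 to 2 for the difference between doses and 0 to 222 for the difference between scaffolds. The highest counts with doses pooled and at 300 nM came without AZD-SAR 300 nM replicate 3, and the highest between scaffolds without GDC-0810 300 nM replicate 3 (222) or AZD-SAR 300 nM replicate 3 (213). No paired analysis was made because the labels number no replicates, and an effect of library order was not tested. The share of calls in the higher direction was 17.8% as deposited and 46.1% after scaling. For the calls that changed, the cause was not tested. Depth is unknown, so no counting interval can be given. The named calls with doses pooled that ended with no filter also ended without a single library, except those of FAM107B, GRAMD4 and RRP9.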
